A study of Homo sapiens with 9 samples.

Results

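The mitochondrial ribosomal protein genes were taken as every gene of the deposited count table whose symbol is MRPL or MRPS followed by digits and at most 1 letter. The rule found 76 of 30017 genes, 47 MRPL and 29 MRPS, and left out pseudogenes and antisense genes. By the current protein nomenclature 49 of them encode proteins of the large mitoribosomal subunit and 26 of the small subunit, because MRPS30 and MRPS18A carry small-subunit symbols but sit in the large subunit. The remaining gene, MRPS36, encodes a component of the 2-oxoglutarate dehydrogenase complex and not a ribosomal protein, and was kept because the rule is by symbol. All 76 passed the filter on low counts, as did 12712 genes in all (42.3% of the table).

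The mitoribosome translates the mRNAs of the mitochondrial genome, which encode core membrane proteins of the respiratory chain and of ATP synthase. Its rRNAs are transcribed inside the organelle, whereas its proteins are encoded in the nucleus, made on cytosolic ribosomes, imported and assembled on those rRNAs. Some of the proteins descend from bacterial ribosomal proteins, and others are particular to mitochondria and replace or extend parts of the rRNA. Acute myeloid leukemia cells are known to be sensitive to loss of mitochondrial translation, and nuclear promoters of this gene family are known to hold sites for NRF1, for ETS factors such as GABP and for YY1.

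RNA-seq was used to measure mRNA in MOLM13, a human acute myeloid leukemia cell line with monocytic features. The cells carried a pLKO-GFP lentivirus, made in 293T cells, that expressed a control hairpin (sh-Control) or 1 of 2 hairpins against DDX41 (shDDX41 #1 and shDDX41 #2), and GFP+ cells were sorted on day 4 after transduction. DDX41 is a DEAD-box RNA helicase mutated in myeloid neoplasms. Each group had 3 libraries, labelled A, B and D, and all came from the 1 line, so that each hairpin is a knockdown by a single sequence and not a set of clones. The study's methods call the repeats of its quantified assays biological replicates, but no label says that the libraries of a group came from separate cultures. If they did not, the p-values measure only the technical spread between these libraries.

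The libraries held 16385238 to 20510032 counted reads, of which the 76 genes took 0.589% to 0.677%. DDX41 was 115 ± 1.76 CPM (counts per 1000000 with TMM scaling, mean ± SD, n = 3) in sh-Control, 11.7 ± 1.56 with shDDX41 #1 and 40.4 ± 1.85 with shDDX41 #2, and followed the labels in every library. Of 11 myeloid markers, 6 were above 10 CPM in every library, KIT was below 3 CPM, CD14 had at most 3 counts and CD34 had no count. The 11 markers of erythroid, lymphoid, megakaryocyte, fibroblast and epithelial cells were each below 3 CPM, with HBB and PF4 at 0. Their sum was 1.90 to 2.58 CPM in sh-Control, 1.75 to 2.18 with shDDX41 #1 and 3.27 to 4.00 with shDDX41 #2. LYZ, a gene of monocytes and granulocytes, was 931 ± 54.9, 870.4 ± 39.98 and 1818 ± 20.6 CPM in sh-Control, shDDX41 #1 and shDDX41 #2, and rose with the latter (0.96 ± 0.07, adjusted p = 1.63e-07). MPO (0.59), ITGAM (0.52) and the low KIT (1.48) also rose with shDDX41 #2. With shDDX41 #1, CSF1R fell from 22.1 ± 1.29 to 12.1 ± 2.07 CPM (−0.86 ± 0.12, adjusted p = 3.79e-05), and CD33 (0.25) and FLT3 (0.20) rose. Values in parentheses are log2 fold changes against sh-Control. The part of these markers in the results below was not tested.

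One library stood apart in the genes studied. Replicate D of shDDX41 #1 had the highest level of its group for 66 of the 76 genes, against 40.8% of all genes tested. Relative to the sh-Control mean, the median level of the 76 genes was 0.21 on the log2 scale in that library and −0.03 and −0.04 in replicates A and B of the same hairpin. The sh-Control libraries were at −0.03, −0.06 and 0.08, and those of shDDX41 #2 at −0.03, −0.02 and −0.06. Replicate D of sh-Control was shifted the same way, with 53 of the 76 genes highest in it, against 35.8% of all genes tested. The same median over the 85 cytosolic ribosomal protein genes tested was also highest in replicate D of shDDX41 #1, at 0.70 against 0.34 and 0.32 in its partners. The counts of changed genes in each comparison are therefore given with and without replicate D of shDDX41 #1. The fit without it keeps the high replicate D of sh-Control, so its values are not a corrected result.

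The summed level of the 76 genes overlapped between each hairpin and sh-Control but not between the hairpins. It was 6177, 6005 and 6545 CPM in sh-Control replicates A, B and D, 6097, 6166 and 7034 CPM with shDDX41 #1, and 5944, 6060 and 5871 CPM with shDDX41 #2. The means were 6242 ± 276, 6432 ± 522 and 5958 ± 95.2 CPM (SD, n = 3). Every shDDX41 #1 sum was above every shDDX41 #2 sum, the closest pair being 6097 and 6060 CPM. Large-subunit genes summed to 4062 ± 186, 4111 ± 350 and 3890 ± 65.5 CPM, and small-subunit genes to 2152 ± 86.8, 2295 ± 172 and 2038 ± 30.5 CPM. The small-subunit sums with shDDX41 #2 (2035, 2070.3 and 2010 CPM) were all below those of sh-Control (2131, 2077 and 2247 CPM). In RNA from a whole population, fewer cells with an mRNA and less of it per cell cannot be told apart.

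Single genes differed among the libraries, as the map of the 75 genes other than MRPS24 by library shows. The level of a gene in CPM is not corrected for transcript length, so no order is drawn between genes. The most counted in sh-Control were MRPL3 (223 ± 3.03 CPM), MRPL13 (202 ± 21.3 CPM) and MRPS27 (191 ± 7.46 CPM), whose proteins are uL3m, uL13m and the pentatricopeptide repeat protein mS27. The least counted were MRPS24, MRPL53 and MRPS17. MRPS24, the gene of uS3m, had 8 to 22 counts per library and shares exons on its strand with the read-through gene URGCP-MRPS24, so that its level is uncertain. Every other gene had at least 281 counts in each library.

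**Figure D1:**
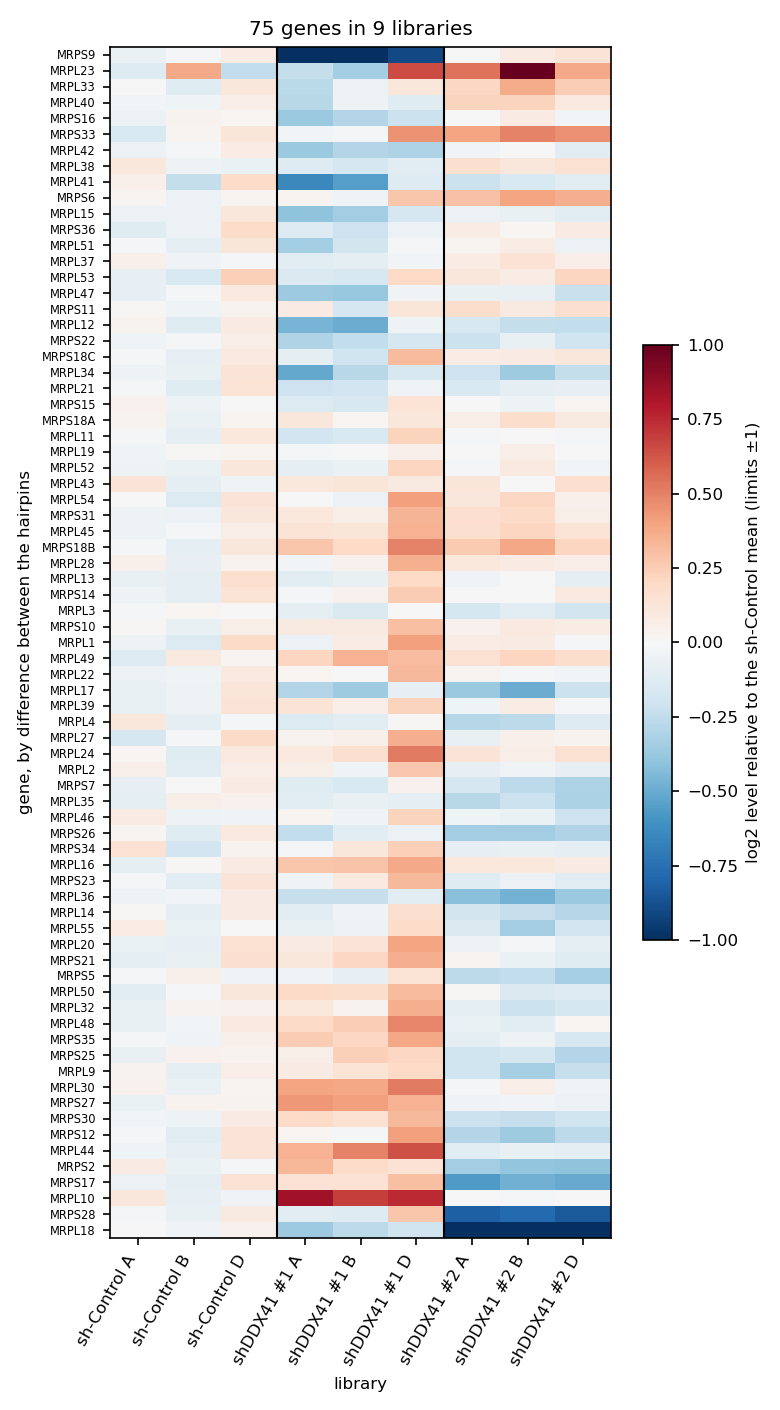
Level against the mean of the sh-Control libraries on the log2 scale (colour, limits at ±1) of 75 genes (vertical axis, ordered by the difference between the hairpins) in 9 libraries (horizontal axis). MRPS9 is blue in the 3 shDDX41 #1 libraries, MRPL18 and MRPS28 in the 3 shDDX41 #2 libraries, and replicate D of shDDX41 #1 is redder than its partners for most genes.

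Promoter sequence is shown for 4 genes named in the comparisons below: MRPS9, which fell most with shDDX41 #1, MRPL18, which fell most with shDDX41 #2, MRPL44, which rose with shDDX41 #1, and MRPL36, which fell with both hairpins. No window was at hand for MRPL10, which rose most with shDDX41 #1, and MRPL44 had the next largest rise. The windows run from 250 bases before to 50 bases after the start of transcription in RefSeq (GRCh38.p14). The MRPS9 window is chr2:105037819-105038118 (+ strand), that of MRPL18 chr6:159789562-159789861 (+ strand), that of MRPL44 chr2:223957213-223957512 (+ strand) and that of MRPL36 chr5:1799788-1800087 (− strand). They are printed 5′ to 3′ on the strand of the gene. Capitals mark letters that match a motif on either strand: GCGCANGCG for NRF1, CCGGAAG for ETS factors, AAGATGG for YY1 or CACGTG for E-box factors.
MRPS9: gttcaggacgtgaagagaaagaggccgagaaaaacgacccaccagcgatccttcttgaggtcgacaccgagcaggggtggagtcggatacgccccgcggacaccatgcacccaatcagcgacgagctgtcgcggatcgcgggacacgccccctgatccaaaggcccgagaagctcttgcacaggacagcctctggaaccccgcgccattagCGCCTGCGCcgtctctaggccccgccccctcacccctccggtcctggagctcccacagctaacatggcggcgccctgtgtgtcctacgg
MRPL18: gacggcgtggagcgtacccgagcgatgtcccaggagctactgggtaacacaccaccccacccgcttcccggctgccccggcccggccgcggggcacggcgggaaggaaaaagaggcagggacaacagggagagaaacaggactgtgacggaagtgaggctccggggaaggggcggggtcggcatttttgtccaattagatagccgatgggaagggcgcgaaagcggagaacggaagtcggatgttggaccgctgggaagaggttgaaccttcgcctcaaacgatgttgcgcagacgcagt
MRPL44: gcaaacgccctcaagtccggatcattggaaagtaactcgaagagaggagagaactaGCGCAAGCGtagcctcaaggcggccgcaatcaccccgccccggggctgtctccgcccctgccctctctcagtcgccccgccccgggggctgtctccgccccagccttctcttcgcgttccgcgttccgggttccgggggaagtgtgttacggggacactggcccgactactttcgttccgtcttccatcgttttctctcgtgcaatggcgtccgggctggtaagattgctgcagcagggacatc
MRPL36: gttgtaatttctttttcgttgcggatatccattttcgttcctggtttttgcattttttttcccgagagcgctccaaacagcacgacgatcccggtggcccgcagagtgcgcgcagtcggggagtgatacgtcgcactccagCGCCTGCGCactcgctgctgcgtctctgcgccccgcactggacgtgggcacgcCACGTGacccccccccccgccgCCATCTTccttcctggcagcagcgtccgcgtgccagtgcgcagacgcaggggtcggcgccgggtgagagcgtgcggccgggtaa
The MRPS9 and MRPL44 windows each held 1 match, to the NRF1 letters. The MRPL36 window held 3 matches, to the NRF1, E-box and YY1 letters, and the MRPL18 window held none of the 4 motifs.

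RefSeq windows were at hand for 67 of the 76 genes. The ETS letters were found in 28 of them (41.8%), against 20.2% of the 9005 windows of tested genes and 10.7% of all 27305 windows. The YY1 letters were found in 23 (34.3%), against 8.07% and 6.06%. The NRF1 letters were in 12 (17.9%, against 15.6% and 8.05%) and the E-box letters in 6 (8.96%, against 10.6% and 7.43%). No window of the 67 held matches of 2 motifs that overlapped, and 20 windows held none of the 4. Of the genes with a window, the ETS letters were in 4 of the 14 that rose with shDDX41 #1, in 3 of the 11 that fell and in 21 of the 42 that did not pass the test. With shDDX41 #2 they were in 2 of the 4 that rose, 2 of the 15 that fell and 24 of the 48 others. The YY1 letters were in 6 of 14, 4 of 11 and 13 of 42 with shDDX41 #1, and in 1 of 4, 4 of 15 and 18 of 48 with shDDX41 #2. These are matches of letters and were not measured as sites.

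**Figure D2:**
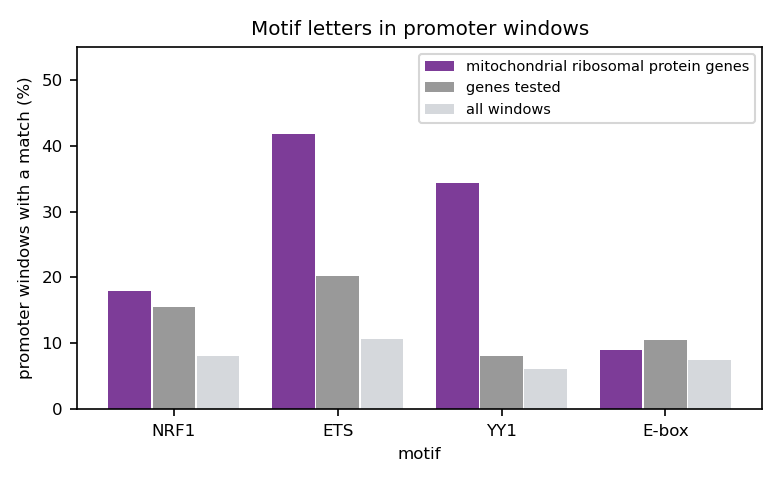
Share of promoter windows (vertical axis, percent) that hold the letters of each motif (horizontal axis), for 67 mitochondrial ribosomal protein genes, 9005 genes tested and 27305 windows in all. The family stands at 41.8% for ETS and 34.3% for YY1, above both other groups, and close to the tested genes for NRF1 and the E-box.

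With shDDX41 #1, 27 of the 76 genes changed against sh-Control (edgeR quasi-likelihood test, Benjamini-Hochberg adjusted p under 0.05), or 35.5%, where 47.8% of all genes tested did. Of these 15 rose (19.7%, against 23.7% of all genes) and 12 fell (15.8%, against 24.1%). Changes in the family were small. The median size of the log2 fold change was 0.15 against 0.29 over all genes, with median standard errors of 0.08 and 0.10, and 2 of the 76 (2.63%) differed by more than 1.5-fold against 21.5% of all genes. The median log2 fold change was 0.07, beside 0.01 over all genes. Without replicate D of shDDX41 #1 the median was −0.02, 12 genes rose and 15 fell, and 24 of the 27 kept their call. In that fit, which keeps the high replicate D of sh-Control, 24.6% of all genes rose and 23.8% fell. The split of calls also moved with the scaling, and upper quartile factors gave 23 rises and 7 falls, with the median of all genes at 0.09. The share of all genes called with those factors was not set beside these counts.

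**Figure D3:**
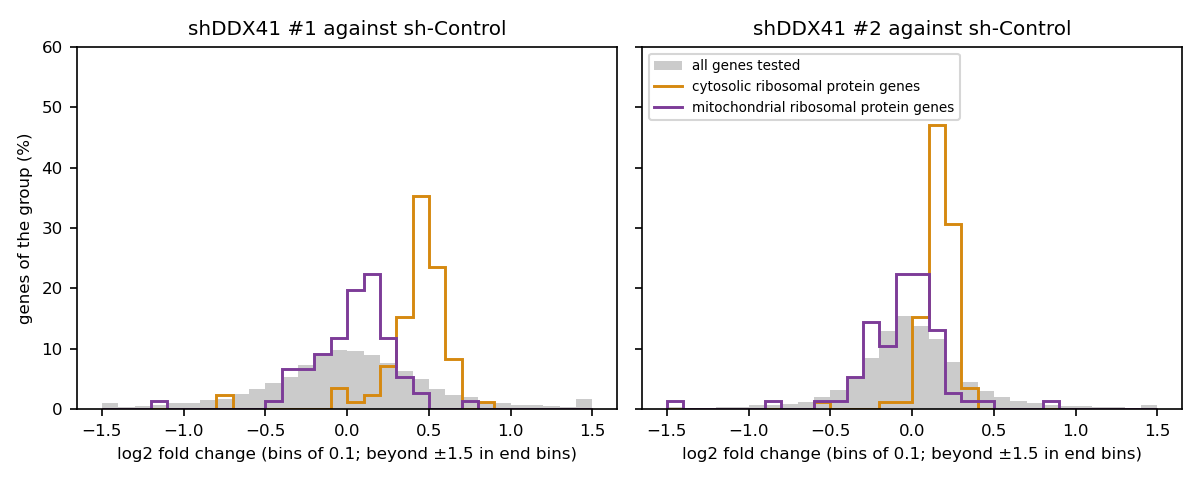
Share of genes (vertical axis, percent) in bins of the log2 fold change against sh-Control (horizontal axis, width 0.1) for shDDX41 #1 (left) and shDDX41 #2 (right). The 76 mitochondrial ribosomal protein genes (purple) centre near 0, at medians of 0.07 and −0.04, and the 85 cytosolic ribosomal protein genes (orange) at 0.47 and 0.18, with all 12712 genes tested in grey.

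The largest fall was that of MRPS9, the gene of uS9m, a small-subunit protein whose bacterial counterpart reaches the decoding region. Its level was 66.3, 69.04 and 73.3 CPM in sh-Control replicates A, B and D and 29.1, 27.8 and 37.01 CPM with shDDX41 #1. The groups did not overlap, and the 3 shDDX41 #1 libraries were all below the lowest control. The log2 fold change, given here and below ± its SE from the fit, was −1.15 ± 0.09, adjusted p = 1.80e-07. The fitted level thus fell by 54.97%. With shDDX41 #2 the level was 69.2, 73.4 and 75.9 CPM and the log2 fold change 0.07 ± 0.09, adjusted p = 0.627. An antisense gene, UTAT33, shares exon positions with MRPS9 (GRCh38 chr2:105037983-105099960, + strand), and whether reads were counted by strand is not given in the sources used here.

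The 5 falls next in size were all of large-subunit genes. MRPL41 encodes mL41, a protein particular to mitochondria, and was at 45.4, 37.2 and 49.9 CPM in sh-Control and 27.9, 29.7 and 40.04 CPM with shDDX41 #1 (log2 fold change −0.44 ± 0.12, adjusted p = 0.00890). Replicate D was the high library and overlapped the controls. MRPL12 encodes bL12m, the protein of the flexible stalk that recruits translation factors, and fell from 150.1, 134 and 155 to 106, 104 and 141 CPM (−0.33 ± 0.10, adjusted p = 0.0141). It overlapped in the same library, and its call was lost without replicate A or B of shDDX41 #1 (adjusted p 0.0702 and 0.0730). The groups did not overlap for MRPL42 (85.4, 88.2 and 93.999 against 68.8, 72.8 and 72.01 CPM), the gene of mL42, whose log2 fold change was −0.33 ± 0.06, adjusted p = 0.000784. MRPL34 (bL34m) fell by 0.32 and MRPL15 (uL15m) by 0.31 on the log2 scale (adjusted p = 0.00849 and 0.00310). MRPS16, the gene of bS16m, fell by 0.29 (adjusted p = 0.00199) and was at 109, 116 and 107 CPM with shDDX41 #2 against 105, 112 and 111 in sh-Control. It shares exon positions on its strand with DNAJC9, which was at 119 ± 7.63, 73.5 ± 7.54 and 114 ± 5.17 CPM in sh-Control, shDDX41 #1 and shDDX41 #2 (−0.70 ± 0.08, adjusted p = 5.75e-06 with shDDX41 #1 and −0.07 ± 0.08, adjusted p = 0.582 with shDDX41 #2). The part of shared reads in the MRPS16 values was not tested.

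The largest rise with shDDX41 #1 was that of MRPL10, the gene of uL10m, which forms the base of the same stalk. It was at 56.01, 48.9 and 50.4 CPM in sh-Control and 92.8, 83.9 and 87.1 CPM with shDDX41 #1 (log2 fold change 0.76 ± 0.07, adjusted p = 5.71e-07), a gain of 69.8% with no overlap. The shDDX41 #2 libraries lay among the controls, at 51.7, 50.9 and 51.9 CPM (−0.01 ± 0.07, adjusted p = 0.943). MRPL11, the gene of the third stalk protein uL11m, did not pass the test with either hairpin (−0.03 ± 0.10, adjusted p = 0.807 with shDDX41 #1 and −0.01 ± 0.09, adjusted p = 0.934 with shDDX41 #2). MRPL11 was named after its values were seen, to complete the stalk. With shDDX41 #1 the 3 stalk genes gave a rise, a fall and a value near 0.

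The next rises were of MRPL44, MRPL30, MRPS27, MRPS18B and MRPL48. MRPL44, the gene of mL44, a protein with a ribonuclease III-like fold, went from 78.3, 76.1 and 88.3 to 103, 114 and 126 CPM (0.50 ± 0.08, adjusted p = 0.000127), and MRPL30 (uL30m) from 88.2, 81.8 and 87.3 to 113, 112 and 123 CPM (0.44 ± 0.07, adjusted p = 7.94e-05). Every shDDX41 #1 library was above every control for both. MRPS27 rose from 182, 195 and 195 to 257, 253 and 242 CPM (0.40 ± 0.06, adjusted p = 6.75e-05), with replicate D its lowest and not its highest shDDX41 #1 library. MRPL48 (mL48) rose by 0.31 (adjusted p = 0.00698). Without replicate D of shDDX41 #1 the 18 calls of the genes named for this comparison kept their direction and their adjusted p under 0.05.

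**Figure D4:**
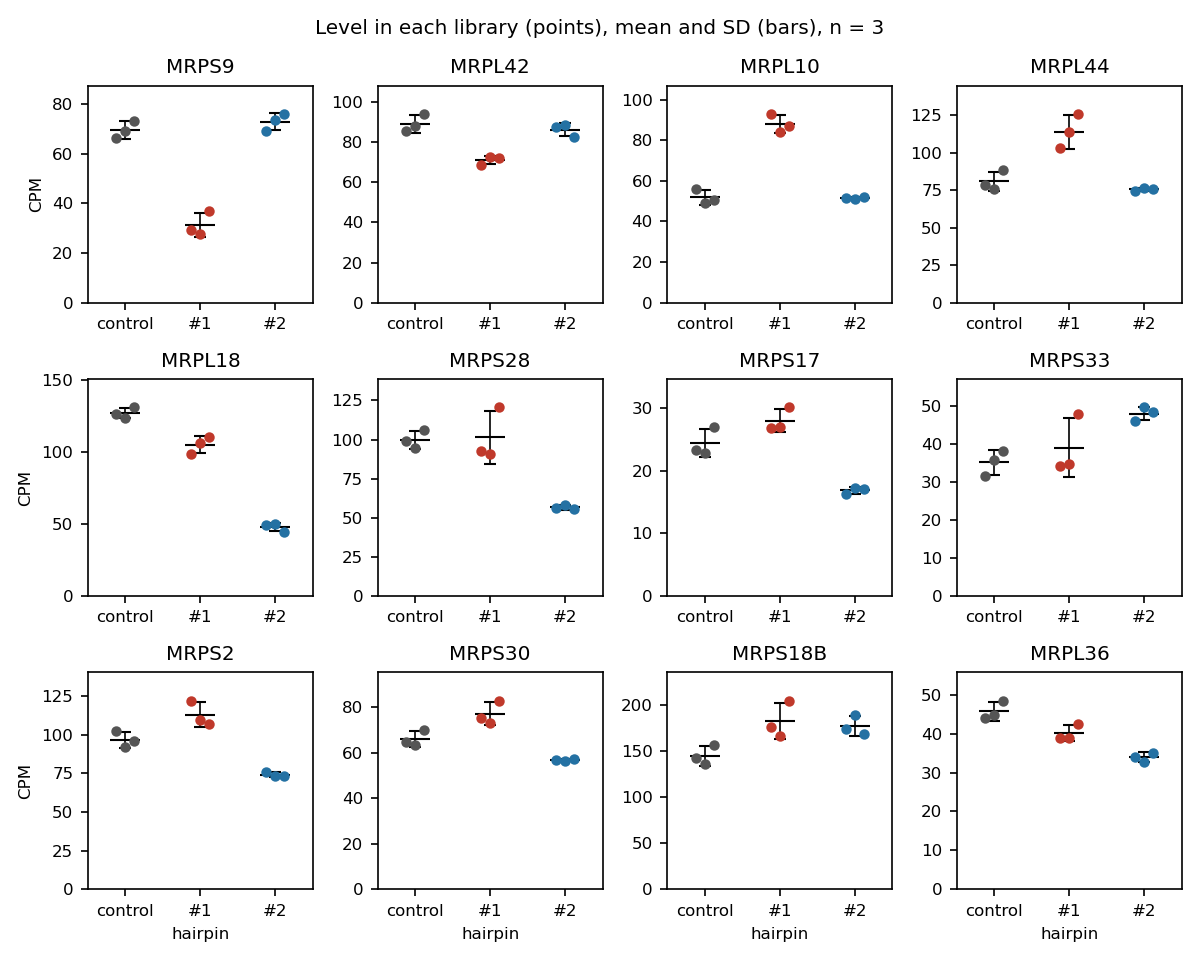
Level (vertical axes, CPM, from 0) in each library of sh-Control (grey), shDDX41 #1 (red) and shDDX41 #2 (blue) for 12 genes, with the mean and SD of 3 libraries. MRPS9 and MRPL42 are low with shDDX41 #1, MRPL10 and MRPL44 high with it, MRPL18, MRPS28 and MRPS17 low with shDDX41 #2, and MRPS2 and MRPS30 lie on either side of sh-Control.

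With shDDX41 #2, 22 of the 76 genes changed against sh-Control (28.9%), where 25% of all genes tested did. Falls were the more numerous, with 17 genes lower (22.4%, against 13.4% of all genes) and 5 higher (6.58%, against 11.6%). The median log2 fold change was −0.04 beside −0.01 over all genes, its median size 0.11 against 0.18, and 3 of the 76 genes (3.95%) differed by more than 1.5-fold against 10.7%. The count of falls moved with the libraries kept: it was 9 without sh-Control replicate D, 11 without replicate A or D of shDDX41 #2 and 8 without replicate B. The share of all genes called lower in these smaller fits was not set beside it, so a change particular to this family cannot be read from them. With replicate D of shDDX41 #1 left out of the shared fit it was 20, with 7 rises. In that fit calls were more frequent over all genes too, with 16.7% lower and 16.2% higher. With upper quartile factors 6 genes rose and 11 fell, and the share of all genes called was not set beside these counts either. Both comparisons use the same sh-Control libraries.

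MRPL18 fell most. It encodes uL18m, the homolog of the bacterial protein that binds 5S rRNA, at GRCh38 chr6:159789812-159798436, + strand. Its level was 126, 124 and 131 CPM in sh-Control, 98.5, 106 and 110.4 CPM with shDDX41 #1 and 49.01, 50.2 and 44.5 CPM with shDDX41 #2. The 3 groups did not overlap, with shDDX41 #2 far the lowest. The log2 fold changes were −0.28 ± 0.07, adjusted p = 0.00362 with shDDX41 #1 and −1.40 ± 0.07, adjusted p = 5.75e-09 with shDDX41 #2. With the latter the fitted level fell by 62.2%. TCP1, a subunit gene of the cytosolic chaperonin, starts within 1 kb on the other strand. It was at 842 ± 62.6, 650.0 ± 35.4 and 765 ± 38.9 CPM in sh-Control, shDDX41 #1 and shDDX41 #2, with log2 fold changes of −0.37 ± 0.07, adjusted p = 0.000596 and −0.14 ± 0.07, adjusted p = 0.177. Neighbours were looked up after the values were seen.

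MRPS28, the gene of the small-subunit protein bS1m, fell next. It was at 98.8, 94.4 and 106 CPM in sh-Control and 56.4, 57.9 and 55.3 CPM with shDDX41 #2 (−0.82 ± 0.10, adjusted p = 2.69e-05). The groups did not overlap, and the fitted level fell by 43.3%. With shDDX41 #1 it was at 92.3, 91.1 and 120.5 CPM (0.02 ± 0.09, adjusted p = 0.857), replicate D being the high library. MRPS17, the gene of uS17m, whose bacterial counterpart binds rRNA early in assembly, fell from 23.4, 22.8 and 27.01 to 16.3, 17.3 and 17.03 CPM (−0.53 ± 0.09, adjusted p = 0.000763). It shares exon positions on its strand with NIPSNAP2, so its counts are less certain. MRPL36 (bL36m) fell by 0.43, MRPS2 by 0.38 and MRPL17 (bL17m) by 0.37 on the log2 scale, with adjusted p of 0.000616, 0.00108 and 0.00900. The other 11 genes that fell with this hairpin did so by 0.22 to 0.34.

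The 5 genes that rose with shDDX41 #2 were MRPL23, MRPS33, MRPS6, MRPS18B and MRPL33. MRPS33 (mS33) went from 31.5, 35.8 and 38.2 to 46.1, 49.7 and 48.4 CPM (0.45 ± 0.11, adjusted p = 0.00923), and MRPS6 (bS6m) from 31.6, 29.7 and 31.6 to 38.1, 40.8 and 39.999 CPM (0.35 ± 0.09, adjusted p = 0.00752). The shDDX41 #2 libraries were above the controls for both. MRPS6 shares exon positions on its strand with SLC5A3. MRPL23, the gene of uL23m at the exit of the protein tunnel, had the largest value (0.84 ± 0.27, adjusted p = 0.0327) and the widest spread. It was at 25.3, 36.2 and 23.3 CPM in sh-Control, 23.4, 21.8 and 43.9 CPM with shDDX41 #1 and 40.7, 73.7 and 36.3 CPM with shDDX41 #2, so that the libraries of each group were uneven, with 1 above its partners. Its call was lost in 4 of 17 other fits, including that without replicate B of shDDX41 #2, where the log2 fold change was 0.45 (adjusted p = 0.240). MRPL33 (bL33m) rose by 0.28 (adjusted p = 0.0376), a call lost on leaving out any of 5 libraries.

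**Figure D5:**
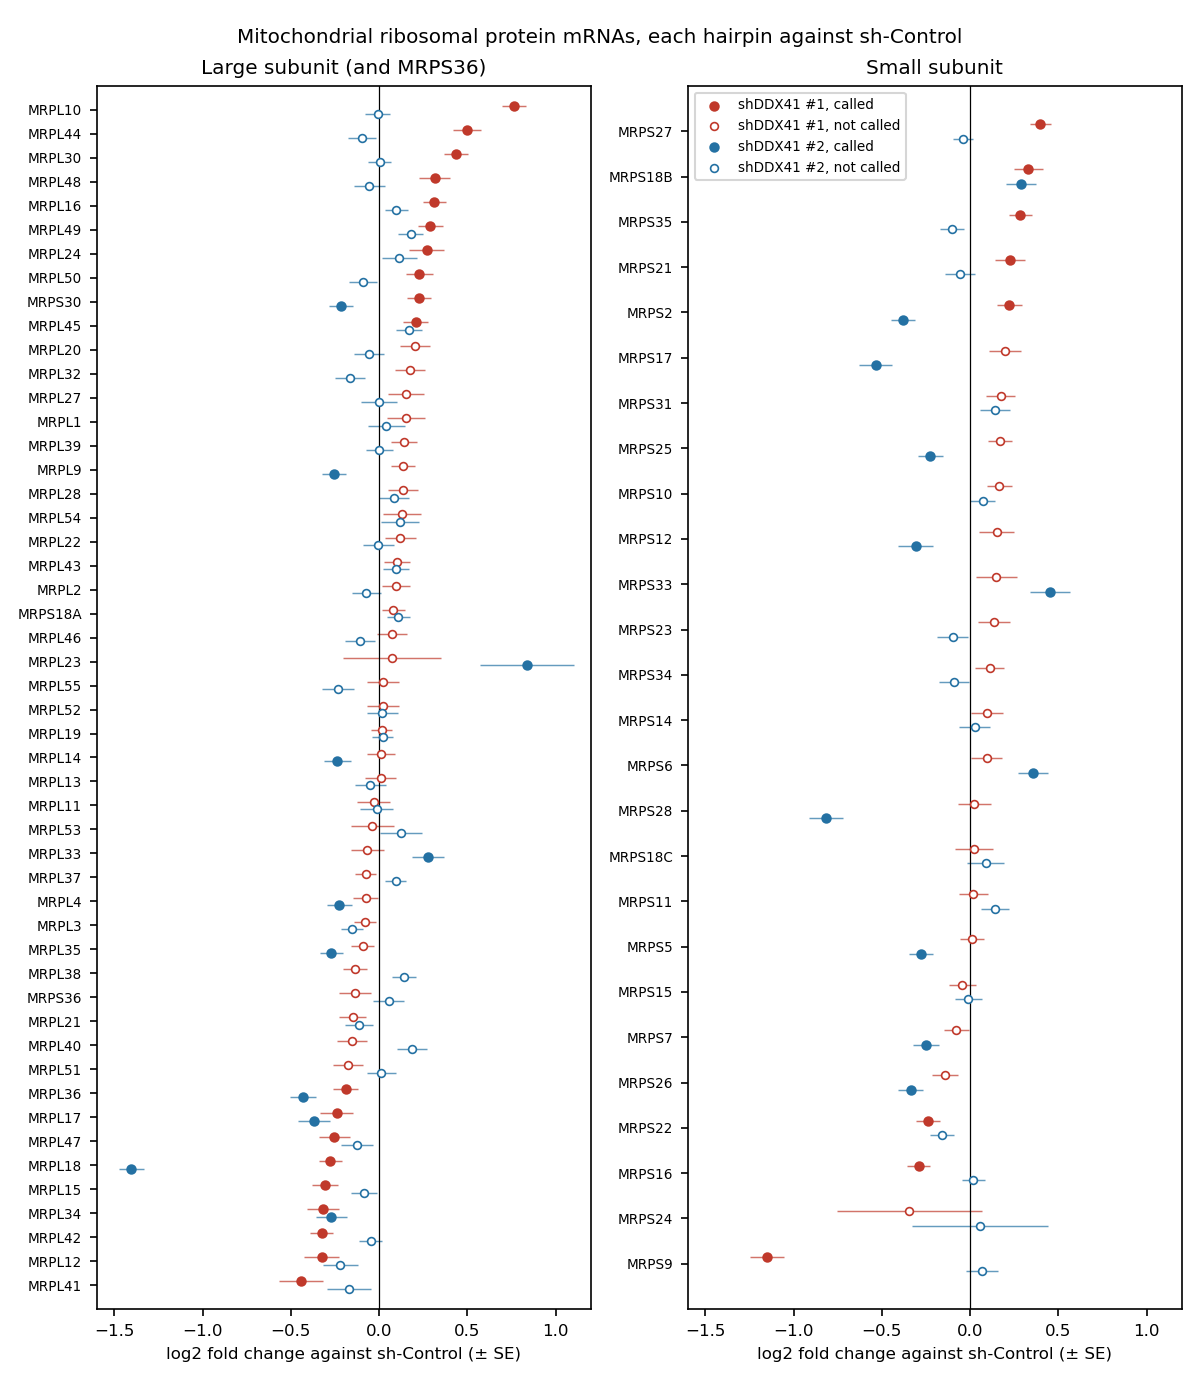
Log2 fold change against sh-Control with its SE (horizontal axis) of the 76 genes, ordered by the shDDX41 #1 value, for shDDX41 #1 (red) and shDDX41 #2 (blue), where filled points passed the test. MRPS9 is the lowest red point at −1.15, MRPL10 the highest at 0.76, and MRPL18 the lowest blue point at −1.40.

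Between the hairpins, 37 of the 76 genes differed (48.7%, against 48.8% of all genes tested). Of these 26 were higher with shDDX41 #1 (34.2%, against 24.6%) and 11 lower (14.5%, against 24.2%), and the median log2 difference was 0.10 beside 0.01 over all genes. Without replicate D of shDDX41 #1 there were 21 higher and 17 lower, with a median of 0.02, beside 24.3% and 24.8% of all genes. The differences over 1.5-fold numbered 8, or 10.5% against 21.8% of all genes. The extremes were MRPL18 at 1.13 ± 0.07, adjusted p = 1.42e-08 and MRPS9 at −1.22 ± 0.09, adjusted p = 1.07e-07. MRPS28 (0.84), MRPL10 (0.77), MRPS17 (0.73), MRPS2 (0.60) and MRPL44 (0.59) were also higher with shDDX41 #1, at adjusted p of at most 2.41e-05. Higher with shDDX41 #2 were MRPL33 (−0.34), MRPL40 (−0.34), MRPS16 (−0.31), MRPS33 (−0.30) and MRPL23 (−0.77). The MRPL23 groups overlapped, and its difference was lost in 4 of 17 other fits, at −0.38 (adjusted p = 0.243) without replicate B of shDDX41 #2. That of MRPS33, whose groups also overlapped, was lost in 6 of 17.

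MRPS2 and MRPS30 were called in opposite directions by the hairpins. MRPS2, the gene of the small-subunit protein uS2m, was at 102, 92.3 and 95.9 CPM in sh-Control, 122, 109.7 and 107 CPM with shDDX41 #1 (0.22 ± 0.07, adjusted p = 0.0147) and 76.1, 73.6 and 73.2 CPM with shDDX41 #2 (−0.38 ± 0.07, adjusted p = 0.00108). The 3 groups did not overlap, but the call with shDDX41 #1 was lost without sh-Control replicate B (adjusted p = 0.0700) and without shDDX41 #1 replicate A (adjusted p = 0.0812). MRPS30, the gene of the large-subunit protein mL65, was at 64.5, 63.5 and 69.8, then 75.1, 73.2 and 82.8 (0.22 ± 0.07, adjusted p = 0.0139) and 56.7, 56.1 and 57.4 CPM (−0.22 ± 0.07, adjusted p = 0.0314). These groups did not overlap either, and the MRPS30 call was lost in 6 of 17 other fits with shDDX41 #2 and in 1 with shDDX41 #1.

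Besides MRPL18, the genes MRPL36, MRPL17 and MRPL34 were called lower with both hairpins. MRPL36 was at 44.02, 44.8 and 48.5 CPM in sh-Control, 38.9, 38.9 and 42.5 with shDDX41 #1 and 34.04, 32.8 and 35.2 with shDDX41 #2, in that order with no overlap. Its call with shDDX41 #1 (−0.19 ± 0.07, adjusted p = 0.0411) was lost in 11 of 17 other fits. MRPL17 gave −0.24 and −0.37, and MRPL34 −0.32 and −0.27, with shDDX41 #1 and #2. The MRPL17 call was lost in 7 of 17 other fits with shDDX41 #1 and in 1 with shDDX41 #2, and the MRPL34 call in 1 and 5. MRPS18B was called higher with both, from 143, 136 and 157 CPM in sh-Control to 176, 167 and 205 with shDDX41 #1 (0.33 ± 0.08, adjusted p = 0.00437) and 174, 189.6 and 168 with shDDX41 #2 (0.29 ± 0.08, adjusted p = 0.0196). The latter call was lost in 4 of 17 other fits, those without sh-Control replicate A or B or shDDX41 #2 replicate A or B. Its paralogs among the homologs of bacterial S18, MRPS18A of the large and MRPS18C of the small subunit, did not pass the test. MRPS18A gave 0.08 ± 0.06 and 0.11 ± 0.06, and MRPS18C 0.02 ± 0.11 and 0.09 ± 0.11.

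By subunit, 10 of the 49 large-subunit genes rose (20.4%) and 9 fell (18.4%) with shDDX41 #1, and 5 of the 26 small-subunit genes rose (19.2%) and 3 fell (11.5%), beside 23.7% and 24.1% of all genes. The medians were 0.02 and 0.10. Without replicate D of shDDX41 #1 they were −0.06 and 0.01, with 8 rises and 12 falls in the large subunit and 4 and 3 in the small. Of all genes 24.6% rose and 23.8% fell in that fit. With shDDX41 #2 the large subunit had 2 rises (4.08%) and 9 falls (18.4%) and the small subunit 3 rises (11.5%) and 8 falls (30.8%), beside 11.6% and 13.4% of all genes. Both medians were −0.05. With replicate D of shDDX41 #1 left out of the fit there were 4 rises and 12 falls in the large subunit and 3 and 8 in the small. Of all genes 16.2% rose and 16.7% fell in that fit.

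By protein name, the 45 genes named after bacterial homologs gave 6 rises (13.3%) and 9 falls (20%) with shDDX41 #1. The 30 with mitochondrial names gave 9 rises (30%) and 3 falls (10%), against the same 23.7% and 24.1%. The 30 include MRPS18A and MRPS18B, homologs of bacterial S18, and MRPS18B was among the rises with both hairpins. Without replicate D of shDDX41 #1 the bacterial group had 4 rises and 11 falls and the mitochondrial group 8 and 4. Of all genes 24.6% rose and 23.8% fell in that fit. With shDDX41 #2 the former gave 3 rises (6.67%) and 14 falls (31.1%) and the latter 2 rises (6.67%) and 3 falls (10%), against 11.6% and 13.4%. Without that library these were 3 and 16, and 4 and 4, beside 16.2% and 16.7% of all genes. The difference between these groups was not tested.

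Mitoribosomal proteins under other symbols (DAP3, PTCD3, CHCHD1, AURKAIP1, GADD45GIP1 and ICT1) were tested apart. With all 9 libraries none of the 6 passed edgeR's test in any comparison, nor DESeq2's or limma's. At an unadjusted p under 0.05, also with all 9 libraries, the count was 0 against sh-Control for either hairpin. It was 1 between the hairpins by each of the 3 tools. Without replicate D of shDDX41 #1, edgeR called 1 lower at an adjusted p under 0.05 with that hairpin against sh-Control and 1 lower between the hairpins. In that fit 23.8% and 24.8% of all genes were lower. MRPL57, listed under its older symbol MRP63 and added after the values were seen, was at 93.3 ± 2.91, 98.3 ± 8.53 and 90.8 ± 1.55 CPM and did not pass the test. Pseudogene copies and the antisense gene MRPL23-AS1 were not counted among the 76.

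Genes that assemble the mitoribosome or modify its rRNA were counted in the same way. Of 27 tested, 12 rose and 4 fell with shDDX41 #1 (59.3%, against 47.8% of all genes). The rises were 44.4%, against 23.7% of all genes, and the falls 14.8%, against 24.1%. Without replicate D 11 rose and 4 fell, beside 24.6% and 23.8% of all genes. NOA1, a GTPase of small-subunit assembly, rose from 58.2, 56.7 and 60.8 to 90.95, 85.01 and 96.7 CPM (0.63 ± 0.07, adjusted p = 2.58e-06), and RBFA, which matures the small-subunit rRNA, fell from 48.2, 47.02 and 46.4 to 34.9, 32.6 and 36.5 CPM (−0.45 ± 0.07, adjusted p = 0.000131). With shDDX41 #2, 1 rose and 5 fell (22.2%, against 25%). The rise was 3.70%, against 11.6% of all genes, and the falls 18.5%, against 13.4%. The falls were led by MTERFD1, now called MTERF3 (−0.48 ± 0.08, adjusted p = 0.000704), and the RNA-binding protein gene GRSF1 (−0.41 ± 0.07, adjusted p = 0.000751). With replicate D of shDDX41 #1 left out of the fit 2 rose and 8 fell, beside 16.2% and 16.7% of all genes. Between the hairpins, 16 of the 27 were higher with shDDX41 #1 (59.3%, against 24.6% of all genes) and 1 lower (3.70%, against 24.2%). Without replicate D of shDDX41 #1 these were 15 and 1, beside 24.3% and 24.8% of all genes. FTSJ2, the rRNA methyltransferase gene also called MRM2, and RPUSD4, a pseudouridine synthase gene, differed most clearly between the hairpins, by 0.58 and 0.54.

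A list of 15 genes held mitochondrial translation factors and other proteins tied to mitochondrial translation, such as OXA1L, LRPPRC and SLIRP. Of the 15, 5 rose and 2 fell with shDDX41 #1 (46.7%, against 47.8% of all genes). Without replicate D 4 rose and 2 fell, beside 24.6% and 23.8% of all genes. OXA1L was among the rises with all 9 libraries. The largest change was in GFM2, the elongation factor G homolog that splits mitoribosomes for recycling. It was at 53.5, 55.4 and 57.1 CPM in sh-Control, 17.5, 19.3 and 17.7 CPM with shDDX41 #1 and 52.3, 52.2 and 52.5 CPM with shDDX41 #2, and the log2 fold changes were −1.61 ± 0.07, adjusted p = 8.06e-10 and −0.08 ± 0.07, adjusted p = 0.401. GFM1, the translocation factor, gave −0.28 ± 0.07, adjusted p = 0.00377 and −0.25 ± 0.07, adjusted p = 0.0151. With shDDX41 #2, 3 of the 15 fell (20%, against 25%), LRPPRC and GFM1 among them. When replicate D of shDDX41 #1 was left out of the fit, 4 fell and 1 rose, beside 16.7% and 16.2% of all genes.

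A list of 20 genes of mitochondrial tRNA charging held synthetase genes and QRSL1, PET112 and GATC, which encode subunits of an amidotransferase. Of the 20, 7 rose and 6 fell with shDDX41 #1 (65%, against 47.8% of all genes). Without replicate D the counts were the same, beside 24.6% and 23.8% of all genes. QRSL1 and PET112 were among the rises with all 9 libraries. TARS2 fell by 0.67 on the log2 scale. With shDDX41 #2, YARS2 fell (−0.40), which was 1 of the 20 (5%, against 25%). When replicate D of shDDX41 #1 was left out of the fit, 2 rose and 1 fell, beside 16.2% and 16.7% of all genes. Of 13 genes of mitochondrial transcription and RNA processing, 4 rose and 3 fell with shDDX41 #1 (53.8%, against 47.8%). Without replicate D 4 rose and 4 fell, beside 24.6% and 23.8% of all genes. TFAM was among the falls with all 9 libraries, at −0.44 ± 0.06, adjusted p = 3.41e-05. With shDDX41 #2, 3 fell (23.1%, against 25%). When replicate D of shDDX41 #1 was left out of the fit, 4 fell, beside 16.7% of all genes. Of 9 transcription factor genes tested for nuclear mitochondrial genes, 3 rose and 2 fell with shDDX41 #1 (55.6%, against 47.8%). The counts were the same without replicate D, beside 24.6% and 23.8% of all genes. With shDDX41 #2, 1 of the 9 rose and 2 fell (33.3%, against 25%). With replicate D of shDDX41 #1 left out of the fit, 1 rose and 4 fell, beside 16.2% and 16.7% of all genes. MYC was at 421 ± 18.4 CPM in sh-Control, 594 ± 46.2 with shDDX41 #1 and 276 ± 26.3 with shDDX41 #2, or 0.50 ± 0.08, adjusted p = 0.000111 and −0.61 ± 0.08, adjusted p = 6.19e-05. Of the factors whose motifs are given above, NRF1 (−0.31 ± 0.08, adjusted p = 0.00655) and GABPA of GABP (−0.27 ± 0.06, adjusted p = 0.00227) fell with shDDX41 #1. Neither passed the test with shDDX41 #2 (both −0.07). GABPB1 fell with shDDX41 #2 alone (−0.28 ± 0.07, adjusted p = 0.00931). GABPB2 rose with both hairpins (0.46 and 0.62), and YY1 passed with neither (−0.07 and −0.13). Their part in the results above was not tested. For the mRNAs of the mitochondrial genome, which the mitoribosome translates, no listed gene was among those tested, so no values are given.

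The cytosolic ribosomal protein genes, the most similar family, gave other counts. With shDDX41 #1, 77 of 85 tested rose (90.6%, against 23.7% of all genes) and 2 fell (2.35%, against 24.1%), with a median log2 fold change of 0.47. Without replicate D 73 rose and 2 fell, with a median of 0.34, beside 24.6% and 23.8% of all genes. With shDDX41 #2, 10 rose (11.8%, against 11.6%) and 1 fell (1.18%, against 13.4%), with a median of 0.18, so the share of rises was near that of all genes. When replicate D of shDDX41 #1 was left out of the shared fit, 50 rose and 1 fell, with a median of 0.19. Of all genes 16.2% rose and 16.7% fell in that fit. The difference between the families was not tested as such. Of the 76 mitochondrial ribosomal protein genes, 33 share exon positions with another gene in GENCODE v29, 24 on the other strand and 12 on their own, and 28 have a divergent protein-coding start within 1 kb. Among the genes named above, exon positions are shared by MRPL12, MRPL23, MRPL30, MRPL34, MRPL44, MRPL53, MRPS2, MRPS6, MRPS9, MRPS16, MRPS17, MRPS18A, MRPS18C, MRPS24 and MRPS28. Counts of such genes are less certain, for overlaps on the other strand where reads were not assigned by strand and for overlaps on the same strand in either case.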

How the data were processed

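RNA from sorted MOLM13 cells was sequenced from poly(A)-selected libraries. The deposited file is 1 table of raw counts per gene that the authors made. The submitters' processing notes name FastQC 0.11.7, HISAT2 2.0.5 and featureCounts 1.5.2, with the builds hg38 and mm10 in no stated role. The labels name a stranded library kit and the study's methods an unstranded one, and the strand setting of counting is not given in the sources used here.

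Counts were used as deposited (0 columns left out). Genes were kept by edgeR's filterByExpr (minimum count 10), scaled by TMM and fitted over all 9 libraries with 1 coefficient per group (edgeR 4.0.16, R 4.3.3). Each of 3 contrasts was tested with the two-sided quasi-likelihood test, Benjamini-Hochberg adjusted over the 12712 genes tested and called at an adjusted p under 0.05. Errors of fold changes are standard errors of the fit. No exact permutation of 3 against 3 libraries goes below 0.1. The common biological coefficient of variation was 0.0768, and CPM values rest on 16385238 to 20510032 reads. The code was tested on simulated data. Alternatives used DESeq2 1.42.0, limma voom 3.58.1, other scaling factors, no filter, fewer libraries, a replicate block and an adjusted p under 0.01.

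Named genes were, per contrast, the 6 called genes with the largest rise and the 6 with the largest fall, those called for both hairpins, the 3 highest and 3 lowest in sh-Control, the MRPS18 paralogs and, per other list, the 2 with the smallest adjusted p. The genes of NRF1, GABP and YY1 were also named, after the values were seen. Members, lists and motifs were chosen with earlier results of these data known, and the lists come from general knowledge. The values of 2 list genes are not reported here. Gene positions were read from GENCODE v29 and promoter windows from RefSeq.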

Additional observations from a re-analysis of the deposited data

Results flagged for a closer look

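MRPS2 and MRPS30 drew attention because their changes against sh-Control had opposite signs for the 2 hairpins and the direct contrast between the hairpins passed the test. MRPS2 differed by 0.60 ± 0.07, adjusted p = 5.40e-06 (shDDX41 #1 minus shDDX41 #2, log2, edgeR quasi-likelihood test), and MRPS30 by 0.44 ± 0.07, adjusted p = 9.52e-05. Both were picked out of 76 genes for being called in both directions, and this contrast uses the same knockdown libraries, so a difference between them follows largely from the choice.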

How the results depend on the processing

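Of 54 calls of named genes (DDX41 included), 37 held in each of 17 other fits and at an adjusted p under 0.01, and none of the fits gave a called gene the opposite sign. Counts of changed genes depended more on the processing. Upper quartile factors moved the rises and falls with shDDX41 #1 from 15 and 12 to 23 and 7, the falls with shDDX41 #2 from 17 to 11, and the genes lower with shDDX41 #1 than with shDDX41 #2 from 11 to 7. An adjusted p under 0.01 left 9 rises with shDDX41 #1, 2 rises and 9 falls with shDDX41 #2, and 17 higher and 6 lower genes between the hairpins. Leaving out 1 library at a time gave 9 to 18 rises and 7 to 15 falls with shDDX41 #1, 2 to 7 rises and 8 to 20 falls with shDDX41 #2, and 19 to 27 higher and 6 to 17 lower genes between the hairpins. Apart from the fit without replicate D of shDDX41 #1, the share of all genes called was not set beside these counts. A change particular to this family cannot be read from them.

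For the other gene lists, 554 counts of rises or falls stayed within 1.5 times of the value reported and 58 did not. The libraries that moved a count of the 76 genes by over 1.5 times were sh-Control B (9 rises with shDDX41 #1), sh-Control A (3 rises with shDDX41 #2), sh-Control D (9 falls with shDDX41 #2), shDDX41 #1 A (7 falls with that hairpin and 6 lower genes between the hairpins), shDDX41 #1 B (6 lower genes between the hairpins) and D (17), shDDX41 #2 A (3 rises and 11 falls with that hairpin), B (2 rises and 8 falls, and 6 lower genes between the hairpins) and D (11 falls). The cause was not tested. For these counts too, the share of all genes called was given only for the fit without replicate D of shDDX41 #1. With 1 library left out, the group of 2 shares its spread with the others.

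The replicate letters were tried as a replicate block, which gave 18 rises and 12 falls with shDDX41 #1, 6 and 17 with shDDX41 #2, and 27 and 13 between the hairpins. The share of all genes called with the block was not set beside these counts. Deviations from the group means correlated between libraries of 1 letter at 0.073, 0.16 and 0.24 (A, B and D) for sh-Control and shDDX41 #1. These were all above the values for different letters, −0.18 to 0.066. For sh-Control and shDDX41 #2 they were 0.02, −0.06 and −0.01 (different letters −0.03 to 0.04), and between the hairpins 0.02, −0.05 and −0.03 (−0.04 to 0.07). The letters were not used to pair the libraries in the main fit, and a pairing of sh-Control with shDDX41 #1 is not excluded.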
